A study of Mus musculus with 50 samples.

Results

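The coagulation and fibrinolysis genes are a list of 34 mouse genes for clotting factors, fibrinogen chains, natural anticoagulants, plasmin system proteins and the enzymes of the vitamin K cycle. The list is defined by the function of the encoded proteins and not by a threshold on the array values, but it was put together with earlier results of these arrays known. Of the 34 genes, 32 were measured, among 30743 genes on the array. They comprise 16 procoagulant genes, 9 anticoagulant genes, 5 fibrinolysis genes and 2 genes of the vitamin K cycle. Cpb2 was not analysed here, and Klkb1 was given no value because its only probe is also annotated to Cyp4v3. Each of the 32 genes was read by 1 probe, so levels are compared between groups for the same gene and never between genes.

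The livers came from pregnant CD-1 mice, an outbred strain, and from their fetuses at gestational day 17.5. Dams were given PFOA at 1 or 5 mg/kg/day, GenX at 2 or 10 mg/kg/day, or vehicle, by daily oral gavage from gestational day 1.5. PFOA, perfluorooctanoic acid, is a carboxylic acid with an unbranched perfluorinated chain. GenX, hexafluoropropylene oxide dimer acid, carries a branched chain with an ether oxygen. Maternal livers (a piece of the left lateral lobe) formed 5 groups of 5 arrays. Fetal livers, 1 per litter from fetuses described as female, formed groups of 5 arrays for PFOA at 1 mg/kg/day, 6 for PFOA at 5 mg/kg/day, 5 for GenX at 2 mg/kg/day, 4 for GenX at 10 mg/kg/day and 5 for vehicle. A fetus was exposed only through its dam, and the numbers of the samples do not say which dam and fetus belong together.

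Blood clots through a cascade in which tissue factor and factor VII start the reaction, a contact pathway through factors XII and XI feeds it, and both meet at factor X, which turns prothrombin into thrombin. Thrombin cuts fibrinogen into fibrin, serpins and the protein C system hold the cascade back, and plasmin dissolves the clot. Hepatocytes make most of these proteins, and several of them need a vitamin K-dependent carboxylation before they can bind membranes. Production of many of them starts before birth and matures later, in a fetal liver that is also a site of blood formation.

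Levels are deposited log2 array values, and a difference of 1 on this scale is a doubling. A gene was called higher or lower where limma's adjusted p was under 0.05 over all 30743 genes. A probe was counted as above background on an array where its value passed the 95th percentile of that array's negative controls, which lay between 7.37 and 8.18 over the 50 arrays. By this measure 20 of the 32 genes were above background on every array, 7 on none (F3, F8, F13a1, Serpina5, Tfpi, Plat and Plau) and 5 on some. No fold change is given for a gene below background in both groups. Array medians lay between 5.15 and 5.34, and 4393 to 7488 genes were above background on an array. On 2 fetal arrays (control replicate 3 and GenX 2 mg/kg/day replicate 2) Xist and the Y-linked Eif2s3y stood at the levels of a male. For 2 others, PFOA 5 mg/kg/day replicate 6 and GenX 2 mg/kg/day replicate 5, the title and another label name different exposures, and the titles were followed. Ehhadh, a peroxisomal enzyme gene that PPARA activates, was higher in each of the 8 exposed groups than in its vehicle group, by 1.39 to 3.55 on the log2 scale. One maternal library went against its label. In the library labelled PFOA 1 mg/kg/day replicate 1 Ehhadh stood at 10.54, against 10.36 to 10.59 in the 5 maternal vehicle livers, while the other 4 arrays of its group lay between 11.94 and 12.36. Without this library the maternal Ehhadh difference at that dose was 1.72 in place of 1.39. The main counts of called genes that rest on the group are given with and without it. Why it reads like vehicle was not tested.

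Stretches before the start that RefSeq's promoter table gives for F11, F7, F10 and F9 are shown because the first 3 genes fell in exposed maternal livers, F9 did not, and F7, F10 and Proz lie side by side on the genome. Each is the 120 bases before that start, 5′ to 3′ on the gene's strand, from RefSeq and GRCm38.p6, at chr8:45262032-45262151 (minus strand) for F11, chr8:13025914-13026033 (plus) for F7, chr8:13037188-13037307 (plus) for F10 and chrX:59999344-59999463 (plus) for F9. For F10 the table's start is the first base of the annotated gene. For F11, F9 and F7 it lies 24, 135 and 528 bases after the first annotated base, so that 24 of the 120 bases of F11 and the whole stretches of F9 and F7 lie within the annotated gene. Exon positions were not used here. Capitals mark matches to the motifs searched.
F11: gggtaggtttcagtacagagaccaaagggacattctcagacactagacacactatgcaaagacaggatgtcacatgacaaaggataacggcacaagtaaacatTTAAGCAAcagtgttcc
F7: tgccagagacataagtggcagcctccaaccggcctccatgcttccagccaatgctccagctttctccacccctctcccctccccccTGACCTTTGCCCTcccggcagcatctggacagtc
F10: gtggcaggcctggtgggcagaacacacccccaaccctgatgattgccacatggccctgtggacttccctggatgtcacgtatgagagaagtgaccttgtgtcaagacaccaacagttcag
F9: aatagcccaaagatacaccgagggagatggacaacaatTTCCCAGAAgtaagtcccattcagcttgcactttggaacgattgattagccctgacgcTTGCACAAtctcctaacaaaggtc
The motifs were GTTAAT (part of a site of HNF1 proteins), CAAAGTCCA (a site of HNF4A), a direct repeat of AGGNCA spaced by 1 base (a form bound by HNF4A and by PPARA with RXR), TTGCNNAA (C/EBP proteins) and TTCNNNGAA (STAT proteins). Both strands were read over 250 bases before to 50 bases after the table's start, and no matches overlap in the stretches printed. The direct repeat was present in 0.381% of 32851 mouse promoters and, among 25 genes of the list with a promoter in the table, in F7, where it begins 34 bases before the table's start. The C/EBP letters were present in 10.797% of all promoters and in 9 of the 25 genes, F11 and F9 among them. GTTAAT was present in 7.099% of all promoters and in F13b, F2, Fga, Fgb and Proz. TTCNNNGAA was present in 8.298% of all promoters and in F9, Fga, Fgb and Pros1. CAAAGTCCA was present in 0.475% of all promoters and in 0 of the 25 genes. The 120 bases printed for F10 hold no match. A match is a description of the letters, and binding was not measured here.

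In maternal livers exposed to PFOA at 5 mg/kg/day, procoagulant, anticoagulant and fibrinolysis genes were among those lower. Of the 32 genes, 17 were lower and 1 was higher than in vehicle livers, where 19.9% of all genes tested were called, 9.04% lower and 10.8% higher. The median difference of the 32 genes was -0.21, against -0.05 over all genes. Among the procoagulant genes 9 of 16 were lower and 1 was higher, among the anticoagulant genes 5 of 9 were lower, and among the fibrinolysis genes 3 of 5 were lower. In 16 of the 32 genes every exposed liver lay below every vehicle liver, as in 7.35% of all genes. In whole liver, fewer cells of a type and less RNA per cell cannot be told apart.

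F11, which encodes the contact pathway protease factor XI, had the largest difference. Its levels were 9.09, 8.56, 8.55, 8.85 and 8.33 in livers exposed to PFOA at 5 mg/kg/day, against 10.05, 10.42, 10.31, 10.11 and 10.27 in vehicle livers. The groups did not overlap. The difference was -1.56 ± 0.21 (SE, n = 5 each; limma adjusted p = 7.02e-06), or 2.94-fold lower. F7, whose product starts clotting together with tissue factor, stood at 10.17, 10.06, 9.70, 10.11 and 10.13 in exposed livers, against 11.39, 11.22, 11.16, 11.18 and 10.96 in vehicle livers. Again the groups did not overlap, and F7 was lower by a log2 difference of -1.15 ± 0.20 (limma adjusted p = 0.000172), or 2.22-fold. F10, the protease at which both pathways meet, had 9.90, 9.80, 9.60, 9.81 and 9.75 in exposed livers, against 10.59, 10.46, 10.28, 10.43 and 10.18 in vehicle livers. It was 1.53-fold lower (log2 difference -0.62 ± 0.12, limma adjusted p = 0.000425).

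The other procoagulant genes called lower moved less. Their log2 differences were -0.38 for F2 (prothrombin), -0.44 for F5 (the cofactor of factor X), -0.48 for F13b (the carrier subunit of factor XIII, which cross-links fibrin), -0.33 for Kng1 (kininogen), -0.27 for Fga and -0.26 for Fgg (fibrinogen chains). Kng1 has a near copy, Kng2, and its probe may read both. F9, the factor IX gene, did not pass the test: its 5 exposed livers lay between 10.42 and 10.86 and its 5 vehicle livers between 10.32 and 10.98, with a difference of -0.05 and a 95% interval of -0.39 to 0.29. F12 (difference -0.17), Fgb (-0.15) and Kng2 (-0.21) did not pass either. F3, the tissue factor gene, was the 1 gene called higher, and it was below background on all arrays. Its values were 6.40, 5.95, 5.94, 6.64 and 5.96 in exposed livers, against 5.18, 5.34, 5.45, 5.22 and 5.56 in vehicle livers (difference 0.83 ± 0.13, limma adjusted p = 8.53e-05). These groups did not overlap, but the values lie in the range of the negative controls.

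**Figure D1:**
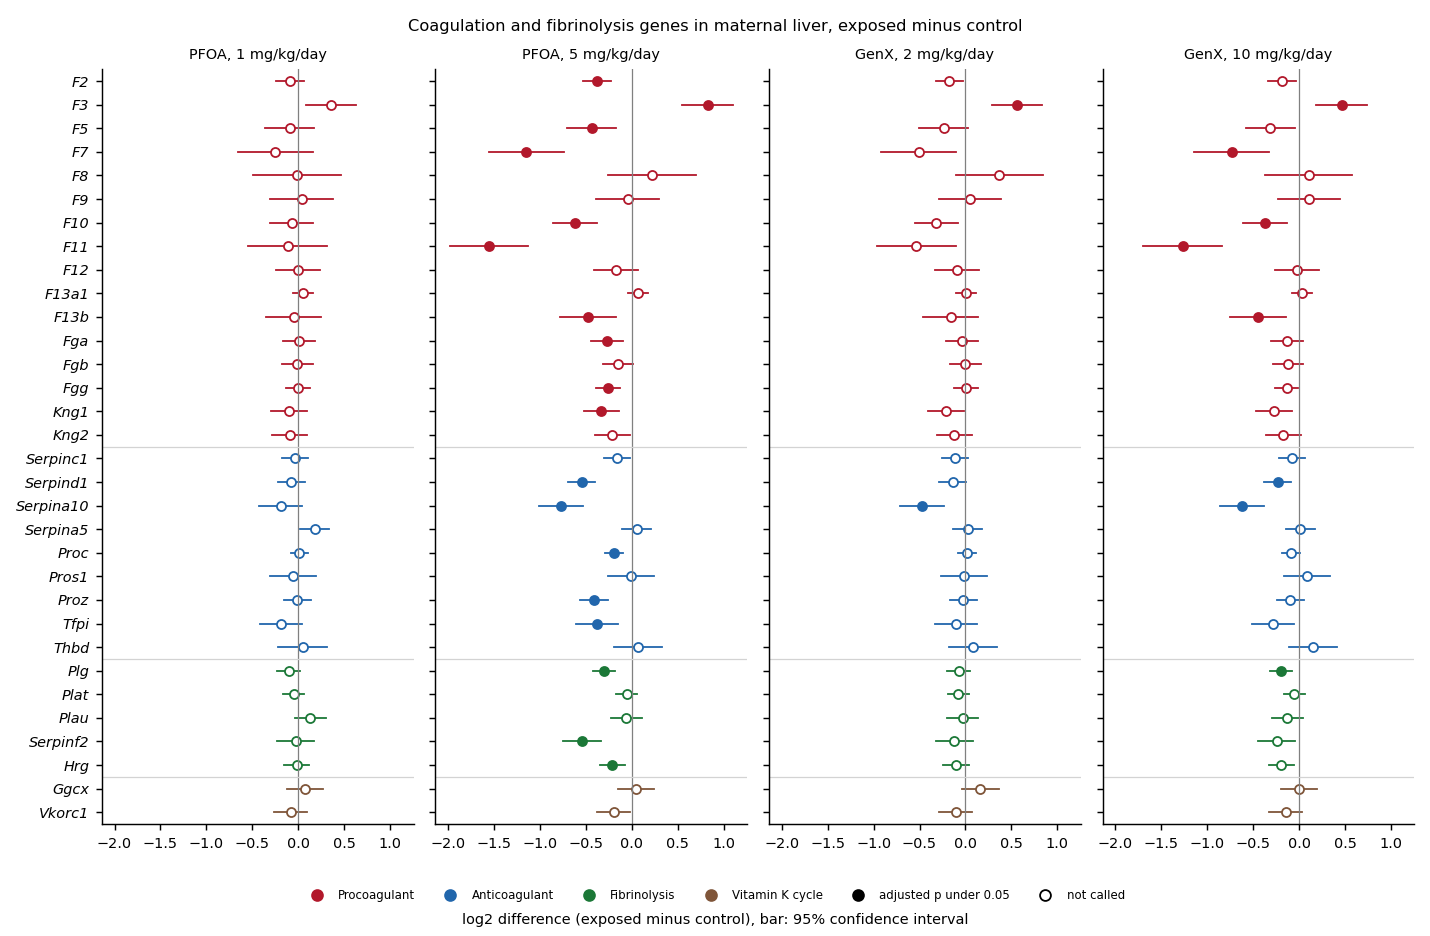
Log2 differences of the measured genes in maternal livers, each exposure minus vehicle, with 95% intervals from the limma fit; 1 panel per exposure, in order of dose within a compound. Filled points passed the adjusted p threshold: 18 genes for PFOA at 5 mg/kg/day, with F11 at -1.56 and F7 at -1.15 farthest below 0.

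Among the anticoagulants, Serpina10, Serpind1 and Proz were the clearest. Serpina10 encodes the protein Z-dependent protease inhibitor, which blocks activated factors X and XI. It stood at 11.004, 10.91, 10.84, 10.96 and 10.78 in livers exposed to PFOA at 5 mg/kg/day, against 11.67, 11.73, 11.63, 11.66 and 11.66 in vehicle livers, and was 1.71-fold lower (log2 difference -0.77 ± 0.12, limma adjusted p = 3.15e-05). Proz encodes protein Z, the cofactor of that inhibitor, and it was lower too. Proz had 9.91, 9.95, 9.79, 9.87 and 9.95 in exposed livers, against 10.44, 10.33, 10.28, 10.29 and 10.18 in vehicle livers (difference -0.41 ± 0.07, limma adjusted p = 0.000206). Serpind1, the thrombin inhibitor heparin cofactor II, had 11.51, 11.33, 11.27, 11.31 and 11.34 in exposed livers, against 11.83, 12.004, 12.02, 11.83 and 11.82 in vehicle livers (difference -0.55 ± 0.07, limma adjusted p = 6.22e-06). None of these 3 genes overlapped between the groups. Proc, the protein C gene, was lower by a log2 difference of -0.19 ± 0.05, and Tfpi, the tissue factor pathway inhibitor gene, was called lower at values below background (-0.37). Serpinc1, the antithrombin gene, had a difference of -0.16 (limma adjusted p = 0.0915), which did not pass although the groups did not overlap.

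Of the fibrinolysis genes, both that of plasminogen and that of the main inhibitor of plasmin were lower. Serpinf2, which encodes the plasmin inhibitor antiplasmin, had 11.45, 11.67, 11.19, 11.43 and 11.48 in livers exposed to PFOA at 5 mg/kg/day, against 12.13, 11.94, 11.9999, 12.05 and 11.81 in vehicle livers. The difference was -0.54 ± 0.10 (limma adjusted p = 0.000309), or 1.46-fold lower. Plg (plasminogen) had 12.19, 12.27, 11.93, 12.17 and 12.05 in exposed livers, against 12.39, 12.48, 12.46, 12.40 and 12.40 in vehicle livers, a smaller difference of -0.30 ± 0.06 (limma adjusted p = 0.00067). Hrg encodes histidine-rich glycoprotein, which binds plasminogen and heparin. Hrg had 11.44, 11.41, 11.26, 11.39 and 11.34 in exposed livers, against 11.52, 11.59, 11.56, 11.70 and 11.53 in vehicle livers (difference -0.21 ± 0.07, limma adjusted p = 0.0266). The plasminogen activator genes Plat and Plau were below background on every array.

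Vitamin K-dependent proteins include members of both arms. Of 7 such genes measured, 5 were lower with PFOA at 5 mg/kg/day (F2, F7, F10, Proc and Proz), and F9 and Pros1 did not pass. The enzymes that serve them, Ggcx (the carboxylase) and Vkorc1 (the reductase that recycles vitamin K), had differences of 0.04 and -0.20, and neither passed. F7, F10 and Proz stand within 50.5 kb at chr8:13025506-13076026 of GRCm38.p6, with Pcid2 as the other gene there, and all 3 were lower. The fibrinogen genes stand within 42.1 kb at chr3:83007724-83049863, and 2 of these 3 were lower.

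Some calls at this dose depended on single arrays. F13b had an adjusted p of 0.0511 and 0.0818 without exposed replicates 2 and 5, and of 0.057 and 0.0622 without vehicle replicates 2 and 3. Fga had 0.0501 without exposed replicate 1 and 0.0863 without vehicle replicate 2, and Hrg had 0.0577, 0.0535 and 0.0759 without exposed replicates 3 and 5 and vehicle replicate 4. Tfpi had 0.0541 without exposed replicate 5 and 0.0636 without vehicle replicate 1. With each array centred on its median, 10 genes were lower and 1 was higher.

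Markers of other cells were read in the same livers. The mean log2 level of 14 mature hepatocyte markers was 11.45 to 11.56 in livers exposed to PFOA at 5 mg/kg/day, against 11.47 to 11.62 in vehicle livers, and 3 of the 14 were lower and 1 was higher. Of 14 macrophage and Kupffer cell markers, 5 were higher and 0 were lower. Their mean level was 7.02 to 7.81 in exposed livers, against 6.87 to 7.57 in vehicle livers, and 7 of the 14 were below background in vehicle livers. Of 10 stellate cell markers, 3 were lower and 0 were higher, at a mean level of 7.44 to 7.55 in exposed livers, against 7.58 to 7.70 in vehicle livers, so that the groups did not overlap. Of 13 endothelial and 10 granulocyte markers 1 each was lower, and 0 of 8 erythroid, 9 megakaryocyte and 6 cholangiocyte markers were called. In exposed livers 7 endothelial, 10 granulocyte, 6 erythroid, 9 megakaryocyte and 5 cholangiocyte markers were below background. In vehicle livers these numbers were 6, 10, 6, 9 and 5, so the lists say little about these cells. The part of any of these markers in the results on clotting genes was not tested.

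With GenX at 10 mg/kg/day, 7 of the 32 genes were lower and 1 was higher in maternal livers, where 13.8% of all genes were called, 6.22% lower and 7.55% higher. The median difference of the 32 genes was -0.13, against -0.05 over all genes. F11 had 8.95, 8.74, 8.94, 9.14 and 9.05 in exposed livers, below all 5 vehicle livers given above. Its difference was -1.27 ± 0.21 (n = 5 each, limma adjusted p = 0.00015), or 2.41-fold lower. Serpina10 had 10.91, 11.01, 11.24, 11.10 and 10.98, again below every vehicle liver, and was 1.54-fold lower (log2 difference -0.62 ± 0.12, limma adjusted p = 0.000663). F7 had 9.91, 10.70, 10.58, 10.48 and 10.56, with exposed replicate 1 well under the others, and was 1.66-fold lower (difference -0.73 ± 0.20, limma adjusted p = 0.0154).

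The other calls of GenX at 10 mg/kg/day were small. The log2 differences were -0.45 for F13b, -0.37 for F10, -0.23 for Serpind1 and -0.19 for Plg, while F3, below background, was higher by 0.46. In 9 of the 32 genes every exposed liver lay below every vehicle liver, as in 6.55% of all genes. Serpinf2 (difference -0.24), F5 (-0.31) and Hrg (-0.19) did not pass, with limma adjusted p of 0.0972, 0.105 and 0.0532, and F9 had a difference of 0.11 with a 95% interval of -0.23 to 0.45. Without exposed replicate 1, only F11 (adjusted p = 0.000625) and Serpina10 (0.00339) were called, and the count without single arrays lay between 2 and 9. With each array centred on its median, 3 genes were lower and 1 was higher. Of the 14 macrophage and Kupffer cell markers 3 were higher here, at a mean level of 7.38 to 7.92 in exposed livers, and their part was not tested. Of the 10 stellate cell markers 1 was higher and 2 were lower, at 7.31 to 7.86.

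At the lower doses few genes were called. GenX at 2 mg/kg/day called 1 gene lower and 1 higher in maternal livers, where 3.37% of all genes were called, 0.937% lower and 2.43% higher. Serpina10 had 10.73, 11.27, 11.25, 11.06 and 11.67 in exposed livers and was lower by a log2 difference of -0.47 ± 0.12 (limma adjusted p = 0.0192), and its highest exposed liver reached the vehicle range. F3, below background, was higher by 0.56. F11 and F7 had differences of -0.53 and -0.51, with limma adjusted p of 0.182 and 0.18, and both leaned on 1 liver. In exposed replicate 1, F11 stood at 8.60 and F7 at 9.65, while the other 4 livers lay between 9.67 and 10.20 for F11 and between 10.71 and 11.16 for F7. Without that liver 0 genes were called, with differences of -0.26 for F11 and -0.26 for F7, and without exposed replicate 3 F3 was no longer called (adjusted p = 0.0574). PFOA at 1 mg/kg/day called 0 of the 32 genes by limma in maternal livers, where 0.0325% of all genes were called, and 2 had an unadjusted p under 0.05. F11 had 10.45, 10.29, 9.90, 9.73 and 10.22 there (difference -0.11, 95% interval -0.54 to 0.32). The first of these values comes from the library that reads like vehicle. Without it 0 of the 32 genes were called and 3 had an unadjusted p under 0.05, where 0.413% of all genes were called. The differences were then -0.20 for F11 (95% interval -0.65 to 0.26), -0.31 for F7 and -0.23 for Serpina10, and none passed. The other maternal comparisons, which share its spread, called 18 genes for PFOA at 5 mg/kg/day and 2 and 8 for GenX at 2 and 10 mg/kg/day without it, as they did with it.

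**Figure D2:**
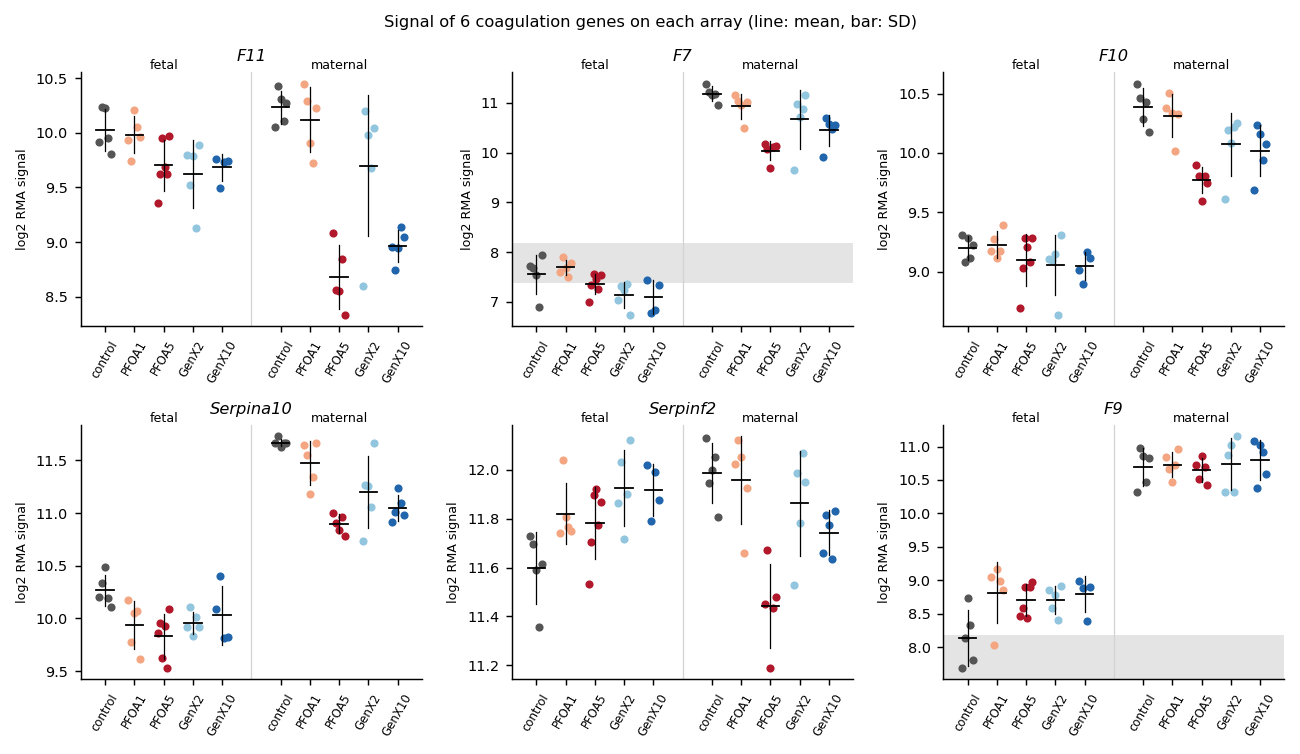
Log2 level of 6 genes on every array, with fetal groups on the left and maternal groups on the right, in order of dose after vehicle for each compound; points are arrays, lines are group means, bars are SD, and the grey band is the range of the negative control percentile over arrays. Maternal F11 lies between 8.33 and 9.09 with PFOA at 5 mg/kg/day, against 10.05 to 10.42 with vehicle, and fetal F7 lies in or below the grey band.

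Setting the doses of a compound against each other, 14 of the 32 genes were lower and 1 was higher in maternal livers with PFOA at 5 than at 1 mg/kg/day, where 18.7% of all genes were called, 8.52% lower and 10.2% higher. These livers share the exposed group with the comparison above. F11 was lower by a log2 difference of -1.44 ± 0.21, F7 by -0.90 ± 0.20, Serpina10 by -0.58 ± 0.12 and Serpind1 by -0.47 ± 0.07 (limma adjusted p of 3.48e-05, 0.00258, 0.00103 and 7.01e-05). Without the library labelled PFOA 1 mg/kg/day replicate 1, 11 genes were lower and 1 was higher, where 16.6% of all genes were called, 7.39% lower and 9.17% higher. The differences were then -1.36 for F11, -0.84 for F7, -0.54 for Serpina10 and -0.47 for Serpind1, and each passed. For GenX at 10 against 2 mg/kg/day limma called 0 of the 32 genes, where 0.237% of all genes were called, and 3 had an unadjusted p under 0.05. F11 there had a difference of -0.73 ± 0.21 (adjusted p = 0.21), and it was -1.01 ± 0.14 and passed (adjusted p = 0.000861) without GenX 2 mg/kg/day replicate 1. The doses of PFOA and GenX do not match, so the compounds are given side by side and were not tested against each other.

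Fetal livers showed few calls in this gene list. Over all genes, 0.953% and 3.39% were called with PFOA at 1 and 5 mg/kg/day. GenX at 2 and 10 mg/kg/day gave 6.73% and 9.27%. The few calls are therefore not read as a trait of the list. Serpina10 was the 1 gene called with PFOA at 5 mg/kg/day, where 3.39% of all genes were called and 1.05% were lower. Its fetal levels ran from 9.53 to 10.09 with a median of 9.89 in the 6 exposed livers, against 10.20, 10.34, 10.49, 10.20 and 10.11 in vehicle livers, and the groups did not overlap. The difference was -0.43 ± 0.11 (n = 6 and 5, limma adjusted p = 0.0306), or 1.35-fold lower. The adjusted p was between 0.0517 and 0.101 without exposed replicate 3 or 5 or without vehicle replicate 1, 2 or 3. Without the 2 male-like fetal arrays it was 0.107 by limma. In the other fetal groups Serpina10 had differences of -0.33 with PFOA at 1 mg/kg/day, -0.31 with GenX at 2 mg/kg/day and -0.24 with GenX at 10 mg/kg/day, which did not pass.

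Serpinf2 was higher in fetal livers with GenX, at both doses. It had 11.86, 12.03, 11.72, 11.90 and 12.12 with GenX at 2 mg/kg/day and 12.02, 11.79, 11.99 and 11.88 at 10 mg/kg/day, against 11.73, 11.70, 11.59, 11.35 and 11.61 in vehicle livers. The differences were 0.33 ± 0.09 (limma adjusted p = 0.0186) and 0.32 ± 0.09 (limma adjusted p = 0.026), and at the higher dose the groups did not overlap. These were the 1 call among the 32 genes at 2 mg/kg/day, where 6.73% of all genes were called and 3.9% were higher, and 1 of 2 at 10 mg/kg/day, where 9.27% were called and 4.42% were higher. PFOA gave Serpinf2 differences of 0.22 and 0.19 at 1 and 5 mg/kg/day, which did not pass. At 2 mg/kg/day the call was lost without vehicle replicate 4 or exposed replicate 5 (adjusted p = 0.0644 and 0.0599), and the exposed one is an array of conflicting labels. The same call was lost without the 2 male-like fetal arrays (limma adjusted p = 0.0711). It was also lost with source names followed (0.0593) and in the fit of only the 2 groups compared (0.063). At 10 mg/kg/day it was lost without vehicle replicate 4 or exposed replicate 1 or 3 (0.0727, 0.0997 and 0.0514).

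F9 was the other call with GenX at 10 mg/kg/day. Its fetal levels were 8.99, 8.88, 8.40 and 8.90 there, against 7.70, 8.14, 8.74, 8.34 and 7.82 in vehicle livers, of which 3 were above background. The difference was 0.65 ± 0.21 (limma adjusted p = 0.0477), or 1.57-fold higher, and the groups overlapped. The call was lost in 7 of the 9 fits that left out 1 array, with adjusted p of 0.0504 to 0.146 (vehicle replicates 1, 2, 4 and 5 and exposed replicates 1, 2 and 4). F9 had differences of 0.67 with PFOA at 1 mg/kg/day, 0.57 with PFOA at 5 mg/kg/day and 0.56 with GenX at 2 mg/kg/day (limma adjusted p of 0.128, 0.109 and 0.0856). With PFOA at 1 mg/kg/day, 4 livers had 9.05, 9.17, 8.99 and 8.85 and replicate 2 had 8.04. Without that replicate the difference was 0.87 and passed (adjusted p = 0.0065).

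F13a1 was the 1 call with PFOA at 1 mg/kg/day in fetal livers, where 0.953% of all genes were called and 0.111% were lower. It encodes the catalytic subunit of factor XIII and is made in megakaryocytes and macrophages. It was below background on all arrays, at 6.99, 6.96, 7.03, 6.90 and 6.89 in exposed livers, against 7.18, 7.49, 7.26, 7.43 and 7.34 in vehicle livers (difference -0.39 ± 0.07, limma adjusted p = 0.00545). F11 had fetal differences of -0.05 and -0.33 with PFOA at 1 and 5 mg/kg/day and of -0.40 and -0.34 with GenX at 2 and 10 mg/kg/day, and none passed. Between doses of PFOA or of GenX limma called 0 of the 32 genes in fetal livers, where 0.0488% and 0% of all genes were called, and 7 and 1 had an unadjusted p under 0.05.

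**Figure D3:**
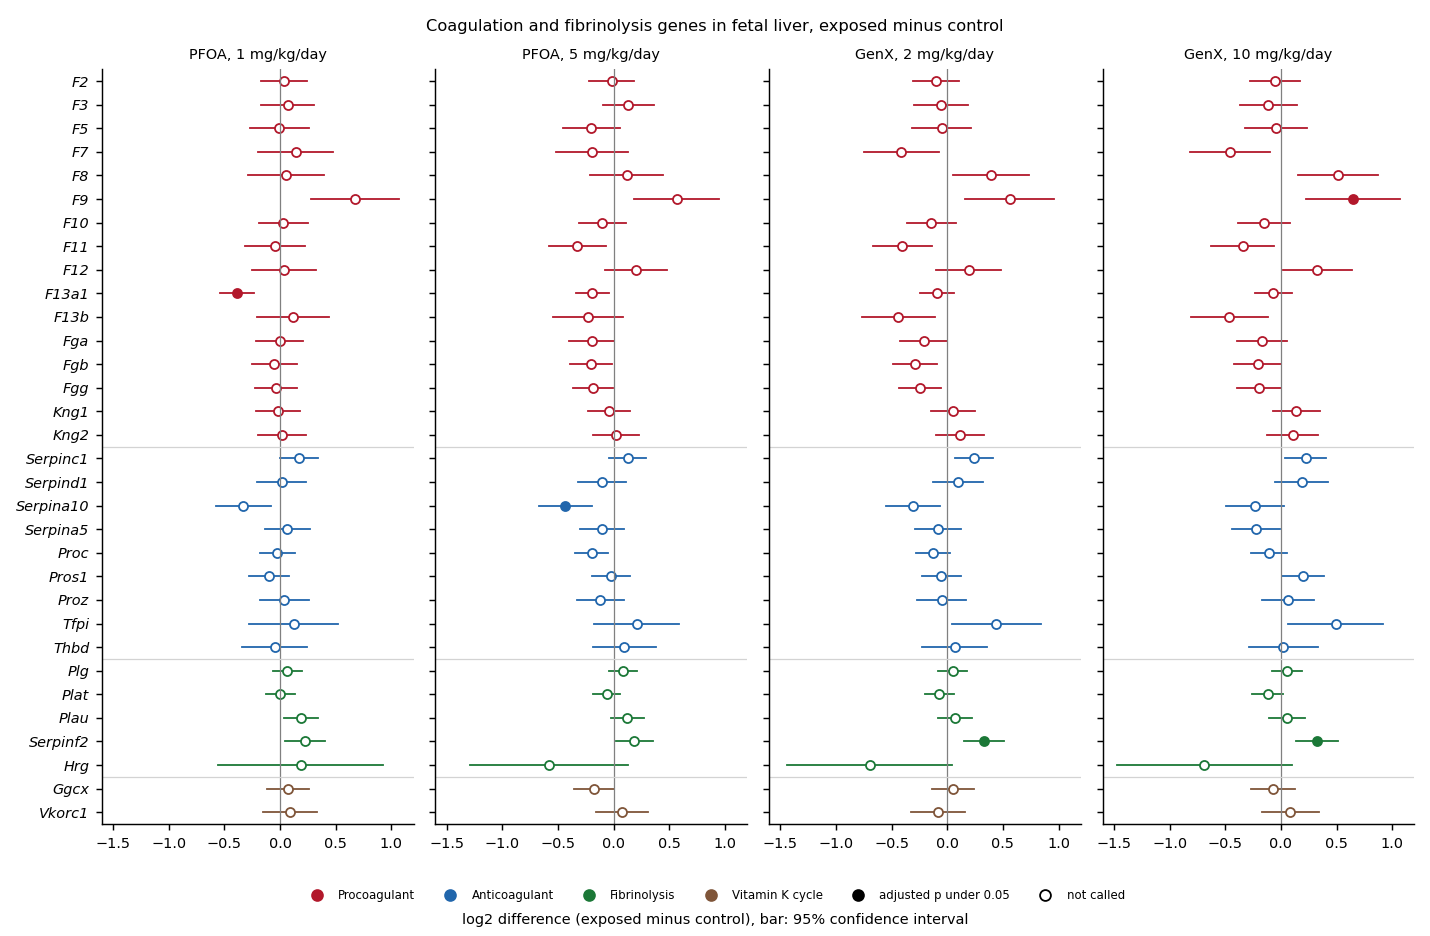
Log2 differences of the measured genes in fetal livers, each exposure minus vehicle, with 95% intervals from the limma fit; 1 panel per exposure. Filled points passed the adjusted p threshold: 1, 1, 1 and 2 genes for PFOA at 1 and 5 and GenX at 2 and 10 mg/kg/day, and Hrg has the widest intervals.

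Hrg varied most between fetal livers of a group. Its fetal levels spanned 7.77 to 10.53, against 11.26 to 11.73 in maternal livers. Hrg was above background on 23 of 25 fetal arrays. The lowest values, 7.77 on GenX 2 mg/kg/day replicate 4 and 8.08 on GenX 10 mg/kg/day replicate 2, lay below the backgrounds of 7.86 and 8.18 there. The pooled within-group SD of Hrg in fetal livers was 0.62, where the median over the 32 genes was 0.176. The fetal differences of Hrg were 0.19 with PFOA at 1 mg/kg/day, -0.58 with PFOA at 5 mg/kg/day, -0.70 with GenX at 2 mg/kg/day and -0.69 with GenX at 10 mg/kg/day, and none passed. In 4 of the 5 fetal groups the array lowest in Hrg was also the lowest in Fga, Fgb and Fgg and in the mean of the hepatocyte markers, and in 3 of the 5 it had the highest mean of the erythroid markers. The part of these markers was not tested.

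Between unexposed livers, fetal levels were lower in 20 of the 32 genes and higher in 1, where 62.2% of all genes were called, 42.2% lower and 20% higher. The median difference of the 32 genes, fetal minus maternal, was -0.55, against -0.13 over all genes. Among the procoagulant genes 10 of 16 were lower, among the anticoagulants 6 of 9, among the fibrinolysis genes 3 of 5, and all 7 vitamin K-dependent genes. The 10 procoagulant genes include F3, which was below background on every array. In 20 of the 32 genes every fetal liver lay below every maternal liver, as in 25.1% of all genes.

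F7 stood at 7.73, 7.67, 7.53, 6.89 and 7.94 in fetal livers, against 11.39, 11.22, 11.16, 11.18 and 10.96 in maternal livers. The difference was -3.63 ± 0.19 (n = 5 each, limma adjusted p = 5.28e-21). Only 1 of the 5 fetal values was above background, so no fold is given. F9 had 7.70, 8.14, 8.74, 8.34 and 7.82 in fetal livers, against 10.32, 10.98, 10.87, 10.46 and 10.83 in maternal livers, with 3 of the fetal values above background (log2 difference -2.55 ± 0.19, limma adjusted p = 7.7e-16). F5 had 9.68, 10.32, 10.39, 9.67 and 9.56 in fetal livers, against 11.85, 12.08, 11.97, 11.83 and 12.03 in maternal livers, and was 4.08-fold lower (-2.03 ± 0.13, adjusted p = 1.69e-17). F11 was not called: fetal livers had 9.92, 10.24, 10.22, 9.95 and 9.81, against 10.05, 10.42, 10.31, 10.11 and 10.27 in maternal livers, a difference of -0.21 with a 95% interval of -0.57 to 0.16. The fibrinogen chains did not pass either, with differences of -0.11 for Fga, -0.18 for Fgb and -0.11 for Fgg.

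Among the anticoagulants, Serpinc1 had 9.21, 9.53, 9.52, 9.28 and 9.24 in fetal livers, against 10.94, 11.02, 10.98, 10.94 and 11.01 in maternal livers. It was 3.08-fold lower (log2 difference -1.62 ± 0.08, limma adjusted p = 1.16e-22). Serpina10 was 2.64-fold lower and Proz 2.20-fold lower, at 9.23, 9.06, 9.23, 9.13 and 9.19 for Proz in fetal livers and at the maternal vehicle values given above. Pros1, the protein S gene, was called lower (-0.53) and was below background on all fetal arrays.

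The fibrinolysis genes differed less, Hrg apart. Hrg had 9.21, 9.96, 9.75, 9.71 and 10.04 in fetal livers and was 3.60-fold lower than in maternal livers (log2 difference -1.85 ± 0.27, limma adjusted p = 1.38e-07). Plg had 11.83, 12.06, 12.04, 11.90 and 12.03 in fetal livers, with a difference of -0.46 ± 0.06, and Serpinf2 differed by -0.39 ± 0.09. Of the vitamin K cycle, Vkorc1 had 10.03, 10.06, 10.20, 10.20 and 10.28 in fetal livers, against 11.10, 10.80, 11.03, 10.92 and 10.81 in maternal livers, and was 1.72-fold lower (-0.78 ± 0.11, adjusted p = 3.08e-08), while Ggcx had a difference of -0.11 that did not pass. The 1 gene called higher in fetal livers was F13a1, below background in both tissues, at 7.18 to 7.49 in fetal livers, against 5.61 to 5.76 in maternal livers.

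The tissues also differed in markers of cell types. The mean log2 level of the 14 hepatocyte markers was 9.55 to 9.81 in fetal livers, against 11.47 to 11.62 in maternal livers, and 12 of 14 were lower. Of these markers 5 were below background in fetal livers. Their levels cannot tell fewer hepatocytes from less RNA per cell. The 8 erythroid markers measured were all higher, at 9.65 to 9.95 in fetal livers, against 6.57 to 6.79 in maternal livers, where 6 of the 8 were below background. All 9 megakaryocyte and platelet markers and all 10 granulocyte markers were higher in fetal livers as well. In maternal livers all of these were below background. In fetal livers 5 of the 9 and 4 of the 10 were below background too. The part of cell makeup in the fetal levels of the clotting genes was not tested.

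**Figure D4:**
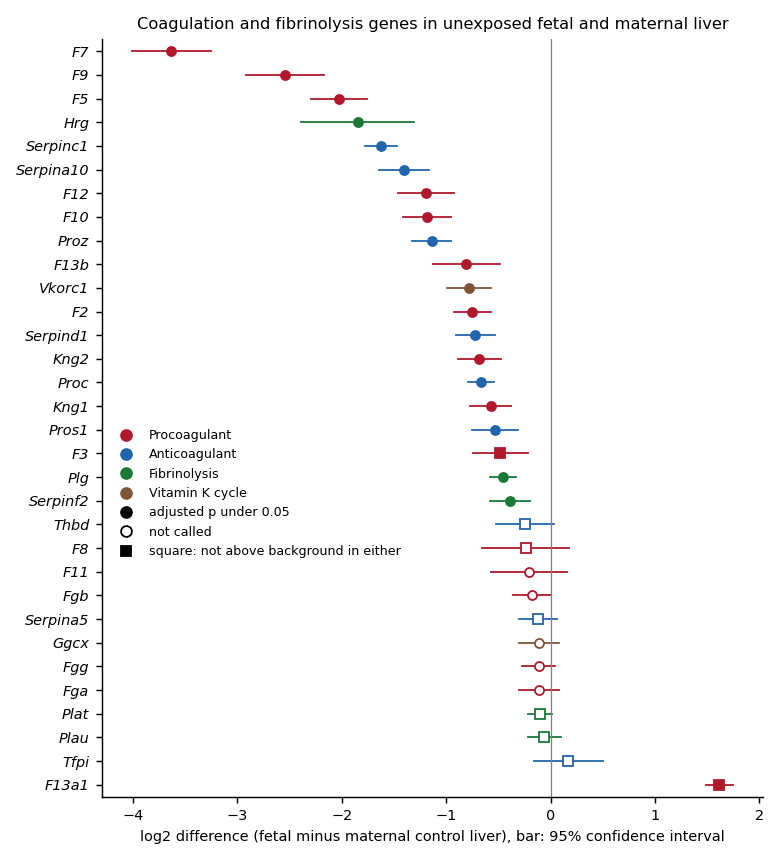
Log2 differences of the measured genes between vehicle livers, fetal minus maternal, with 95% intervals from the limma fit, sorted by size; squares mark genes below background in both groups and filled symbols passed the adjusted p threshold. F7 lies at -3.63 and F9 at -2.55, and the intervals of F11, Fga and Fgg include 0.

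Whether an exposure acted differently in the tissues was tested as the fetal minus the maternal effect. For PFOA at 5 mg/kg/day, 7 of the 32 genes passed, 6 above 0 and 1 below, where 4.48% of all genes were called, 1.77% above 0 and 2.71% below. A value above 0 here means that the fetal level fell less, or rose more, than the maternal level. F11 had an effect of -0.33 in fetal livers and -1.56 in maternal livers, which differed by 1.23 ± 0.25 (limma adjusted p = 0.00107). Serpinf2 had 0.19 in fetal livers and -0.54 in maternal livers, a difference of 0.73 ± 0.13 (adjusted p = 0.000197). Plg had 0.08 in fetal livers and -0.30 in maternal livers, a difference of 0.39 ± 0.08 (adjusted p = 0.0023).

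For F10 and Serpind1 the PFOA effects at 5 mg/kg/day differed by 0.51 ± 0.16 and 0.44 ± 0.13 (limma adjusted p of 0.0493 and 0.0359), and the calls were lost in 22 and 14 of 30 alternative settings. The difference for F7 was 0.95 ± 0.26 (limma adjusted p = 0.0219), with 1 of 5 fetal vehicle arrays and 0 of 6 fetal exposed arrays above background. Without fetal vehicle replicate 4 it was no longer called (adjusted p = 0.0661), and 4 genes were called in all. F3 was the gene below 0, at -0.69 ± 0.18, and was below background in both tissues. With each array centred on its median, 4 genes were above 0 and 2 below.

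For GenX at 10 mg/kg/day, 2 of the 32 genes passed, where 2.04% of all genes were called and 0.735% were above 0. Serpinf2 had 0.32 in fetal livers and -0.24 in maternal livers, a difference of 0.57 ± 0.14 (limma adjusted p = 0.0138). F11 had -0.34 in fetal livers and -1.27 in maternal livers, a difference of 0.92 ± 0.26 (limma adjusted p = 0.0481), and the call was lost in 15 fits that left out 1 array, with adjusted p of 0.0528 to 0.0964. For PFOA at 1 mg/kg/day F13a1 passed at -0.44 ± 0.09, where 0.179% of all genes were called and 0.0488% were below 0. Without the maternal library that reads like vehicle F13a1 was at -0.43 and again the 1 call (limma adjusted p = 0.0208), where 0.237% of all genes were called and 0.0781% were below 0. For GenX at 2 mg/kg/day limma called 0 of the 32 genes, where 1.28% of all genes were called, and 6 had an unadjusted p under 0.05. The fetal minus maternal effects of F9 were 0.64 and 0.61 for PFOA at 1 and 5 mg/kg/day and 0.52 and 0.54 for GenX at 2 and 10 mg/kg/day, and none passed. The first of these includes the maternal library that reads like vehicle.

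**Figure D5:**
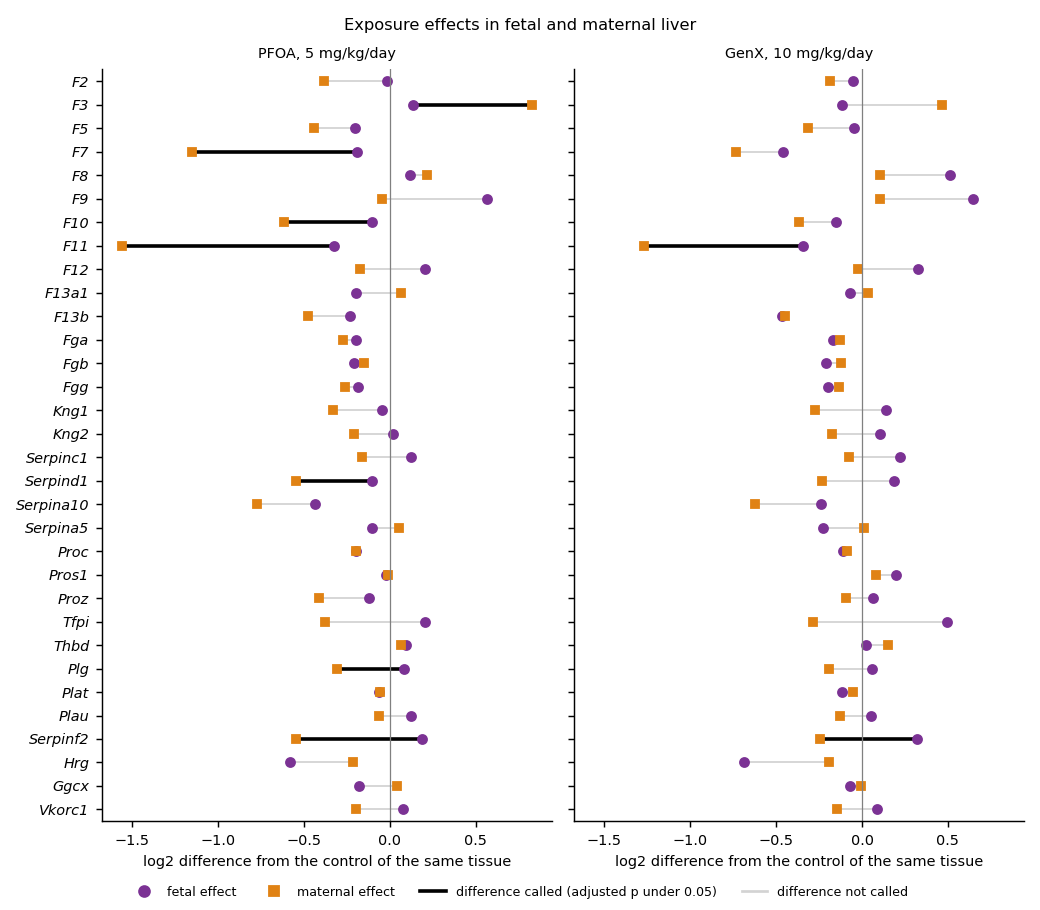
Log2 differences from vehicle for PFOA at 5 mg/kg/day and GenX at 10 mg/kg/day, with fetal livers as circles and maternal livers as squares. A line joins the symbols of a gene, black where the fetal and maternal effects differed past the adjusted p threshold and grey elsewhere. Intervals are not drawn. F11 shows the widest gap, with -0.33 in fetal and -1.56 in maternal livers for PFOA.

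Genes of haemostasis outside the list were read beside it, from 24 genes of which 20 were measured. In maternal livers, 3 were higher and 5 lower with PFOA at 5 mg/kg/day, where 10.8% of all genes were higher and 9.04% lower. With GenX at 10 mg/kg/day 3 were higher and 4 lower, where 7.55% of all genes were higher and 6.22% lower. Habp2 was picked for its pattern across tissues. It encodes a plasma protease that can activate factor VII, and it had maternal differences of -0.67 ± 0.11 with PFOA at 5 mg/kg/day (limma adjusted p = 8.62e-05) and -0.49 ± 0.11 with GenX at 10 mg/kg/day (limma adjusted p = 0.00406). In fetal livers Habp2 was higher with GenX at 10 mg/kg/day, by 0.49 ± 0.13 (limma adjusted p = 0.015). The fetal minus maternal effect of Habp2 was 0.71 for PFOA at 5 mg/kg/day, 0.67 for GenX at 2 mg/kg/day and 0.97 for GenX at 10 mg/kg/day, and each passed. As the gene was picked for this pattern, these tests add no support to it. Hgfac, the hepatocyte growth factor activator, was lower in maternal livers with PFOA at 5 mg/kg/day, by a log2 difference of -1.05 ± 0.17.

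Anxa2, which helps to assemble plasminogen and its activator on cell surfaces, was at least 1.10-fold higher in maternal livers with PFOA at 5 mg/kg/day and at least 1.24-fold higher with GenX at 10 mg/kg/day, where the vehicle livers were below background. In fetal livers it was lower, with differences of -0.52 for PFOA at 5 mg/kg/day, -0.71 for GenX at 2 mg/kg/day and -0.78 for GenX at 10 mg/kg/day. Tfpi2, a Kunitz inhibitor of proteases such as plasmin, was higher in fetal livers in the same groups, with differences of 0.58, 0.73 and 0.86. Between vehicle livers, Fgl1, a fibrinogen-like liver protein, was at least 6.95-fold lower in fetal than in maternal livers.

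Acute phase genes and liver transcription factors, which share regulators with clotting genes, were read too. Of 20 acute phase genes, 12 were lower and 2 were higher with PFOA at 5 mg/kg/day in maternal livers. With GenX at 10 mg/kg/day 11 were lower and 1 was higher. Over all genes 9.04% were lower and 10.8% higher in the PFOA group, and 6.22% and 7.55% in the GenX group. Crp, C-reactive protein, had differences of -0.48 and -0.64 there. In fetal livers 4, 6 and 8 of the 20 were lower with PFOA at 5 mg/kg/day, GenX at 2 mg/kg/day and GenX at 10 mg/kg/day. Of all genes 3.39%, 6.73% and 9.27% were called in these fetal groups, in either direction. Of 18 liver transcription factors, 7 were higher and 1 was lower with PFOA at 5 mg/kg/day in maternal livers, and 6 were higher with GenX at 10 mg/kg/day. Creb3l3, a membrane-bound factor of hepatocytes, had maternal differences of 0.51 and 0.38 in these groups.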

How the data were processed

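Total RNA of livers was read on mouse whole-transcript Affymetrix arrays. The deposited values are log2 expression, made by the authors with RMA, and the build named is mm10, both per the submitters' processing notes. Software versions are not given in the sources used here. In all, 72688 features were tabulated; of these 65956 were transcript clusters, and 5222 negative controls set the background. Probes annotated to 1 gene were kept (1534 with several genes were left out), the brightest probe was taken for 364 genes with several, and 30743 genes were tested. limma 3.58.1 in R 4.3.3 (lmFit, eBayes, Benjamini-Hochberg) was fitted over the 5 groups of a tissue for exposures and doses, and over all 10 groups for tissue comparisons, with no replicate block. The fit was tested on simulated data. The number of arrays limits the precision. Dams and litters were separate animals, and dam and fetus of a litter were treated as independent. Tables and figures used Python 3.11.15, pandas 2.3.3 and matplotlib 3.10.9.

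A bound ("at least") sets the brighter group against the lowest level that counts as above background. The members, marker lists and tests were chosen, the members by function, with earlier results of these data known. Values on every array are given, per tissue and role, for up to 3 called members with the largest differences. F10 and further values of F9 and F11 were added after their values were seen. Of the other lists, up to 3 genes with the smallest adjusted p per comparison are named, and Habp2 was picked for its pattern across tissues. Alternatives were scaling (quantile normalization, median centring), a filter on dim genes, fits of only the groups compared or of all 10 groups, array weights, an intensity trend, the mean of a gene's probes, a replicate block, an erythroid covariate, arrays left out in turn, and the arrays of conflicting labels or male-like reading left out. Same-numbered arrays did not deviate together in every pair (correlations of -0.54 to 0.59), so the numbers were not taken to pair them.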

Additional observations from a re-analysis of the deposited data

Results flagged for a closer look

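In 23 of 320 pairs of a gene and a group of 4 to 6 arrays, the highest or the lowest array stood apart from the others of its group by Dixon's test, which chance does in about 1 in 20. They fell on 13 arrays. Of these, 6 were on fetal PFOA 1 mg/kg/day replicate 2. There F9 had 8.04 (the other 4 arrays 8.85 to 9.17), Fga 11.64 (12.07 to 12.22), Fgb 12.07 (12.51 to 12.63), Fgg 12.27 (12.65 to 12.74) and Kng1 10.71 (11.08 to 11.19), all low, while Serpinf2 was high at 12.04 (11.74 to 11.81). Maternal GenX 2 mg/kg/day replicate 1 was low in F2 at 11.42 (11.82 to 11.95), F5 at 10.98 (11.80 to 12.02) and F10 at 9.61 (10.08 to 10.25). On this maternal array all the genes that stood apart were procoagulant. On the fetal array they were procoagulant too, except Serpinf2, a fibrinolysis gene.

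Maternal PFOA 5 mg/kg/day replicate 3 was low in F2 at 11.48 (11.60 to 11.62) and F7 at 9.70 (10.06 to 10.17), and replicate 4 was high in Kng2 at 11.01 (10.79 to 10.84). Maternal GenX 10 mg/kg/day replicate 1 was low in F7 at 9.91 (10.48 to 10.70), and replicate 3 was high in Plg at 12.33 (12.19 to 12.23). Proz was low on maternal PFOA 1 mg/kg/day replicate 4 at 10.11 (10.31 to 10.38). Maternal vehicle replicate 1 was low in F13a1 at 5.61 (5.74 to 5.76), below background, and in Kng2 at 10.95 (11.09 to 11.10), and replicate 2 was high in Fgg at 12.88 (12.73 to 12.77).

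Among fetal livers, GenX 2 mg/kg/day replicate 1 was high in F5 at 9.99 (9.82 to 9.87) and Serpinc1 at 9.70 (9.56 to 9.58). GenX 10 mg/kg/day replicate 2 was low in F11 at 9.50 (9.74 to 9.76), and replicate 3 was low in Kng1 at 10.99 (11.25 to 11.30). Vehicle replicate 1 was low in Fgg at 12.46 (12.69 to 12.76).

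By the same test Ehhadh, the check of exposure, stood apart on the library labelled maternal PFOA 1 mg/kg/day replicate 1, at 10.54 (11.94 to 12.36).

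The fetal and maternal effects differed by limma's test in 10 cases. With PFOA at 5 mg/kg/day the fetal minus maternal differences were 1.23 for F11, 0.95 for F7, 0.73 for Serpinf2, 0.51 for F10, 0.44 for Serpind1, 0.39 for Plg and -0.69 for F3. With GenX at 10 mg/kg/day they were 0.92 for F11 and 0.57 for Serpinf2, and with PFOA at 1 mg/kg/day -0.44 for F13a1. F3 and F13a1 were below background on all arrays. F7 was above background on only 3 of the 25 fetal arrays, so its fetal effect was read near background.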

How the results depend on the processing

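Over the alternatives, 1614 values of 79 called gene results were recomputed: 1433 kept direction and call, 181 lost the call and 0 changed direction. In maternal livers with PFOA at 5 mg/kg/day, F11, F7, F10, F2, Serpina10, Serpind1, Serpinf2, Plg and Proz kept the call in all 19 settings, and so did F11 with GenX at 10 mg/kg/day. Hrg had an adjusted p of 0.594 in the fit of all 10 groups, at the same difference of -0.21. That fit uses 1 spread for both tissues, while the pooled within-group SD of Hrg was 0.62 in fetal and 0.10 in maternal livers. The tissue comparisons of Hrg rest on the same fit. The cause was not tested for the changes below. No scaling moved the median of all genes by over 0.1.

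Counts of called genes changed by more than 1.5 times as follows. With median centring the count was 11 for maternal PFOA at 5 mg/kg/day (18 as reported), 1 for maternal GenX at 2 mg/kg/day (2), 4 for maternal GenX at 10 mg/kg/day (8), 0 for fetal PFOA at 5 mg/kg/day (1), 9 for maternal PFOA at 5 against 1 mg/kg/day (15) and 1 for the fetal minus maternal effect of GenX at 10 mg/kg/day (2). With quantile normalization it was 1 for maternal GenX at 2 mg/kg/day, 2 for fetal PFOA at 5 mg/kg/day, 4 for fetal GenX at 2 mg/kg/day (1 higher and 3 lower, against 1 and 0) and 1 for the GenX effect at 2 mg/kg/day (0), and for fetal GenX at 10 mg/kg/day it split into 1 higher and 2 lower, against 2 and 0. Without dim genes it was 1 for maternal GenX at 2 mg/kg/day, 0 for fetal PFOA at 1 mg/kg/day, 6 for fetal GenX at 2 mg/kg/day, 0 for the PFOA effect at 1 mg/kg/day and 1 for the GenX effect at 2 mg/kg/day. In fits of only the groups compared it was 0 for maternal GenX at 2 mg/kg/day, 13 for maternal GenX at 10 mg/kg/day, 0 for fetal GenX at 2 mg/kg/day and 1 for fetal GenX at 10 mg/kg/day (2). In fits of all 10 groups it was 2 for fetal PFOA at 5 mg/kg/day, 4 for fetal GenX at 2 mg/kg/day and 1 for maternal GenX at 10 against 2 mg/kg/day (0), which array weights also gave as 1. With the erythroid covariate it was 2 for fetal PFOA at 5 mg/kg/day and 2 for fetal GenX at 2 mg/kg/day. Without the male-like arrays it was 2 for fetal PFOA at 1 mg/kg/day (1), without the arrays of conflicting labels 1 for fetal GenX at 10 mg/kg/day, and with source names followed 0 for fetal GenX at 2 mg/kg/day. With the replicate block it was 2 for fetal GenX at 2 mg/kg/day and 1 for fetal GenX at 10 mg/kg/day. Other counts moved by less with the replicate block: 18 for maternal PFOA at 5 mg/kg/day, 2 and 7 for maternal GenX at 2 and 10 mg/kg/day, 1 and 1 for fetal PFOA at 1 and 5 mg/kg/day and 14 for maternal PFOA at 5 against 1 mg/kg/day. Same-numbered arrays deviated by correlations of -0.54 to 0.59.

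Leaving out 1 array gave 0 to 0 genes for maternal PFOA at 1 mg/kg/day, 15 to 18 for PFOA at 5 mg/kg/day, 0 to 2 for GenX at 2 mg/kg/day (0 without exposed replicate 1, 1 without replicate 3) and 2 to 9 for GenX at 10 mg/kg/day (2, 5 and 4 without exposed replicates 1, 4 and 5, 4 and 5 without vehicle replicates 2 and 3). In fetal livers it gave 1 to 2 for PFOA at 1 mg/kg/day (2 without vehicle replicate 3 or exposed replicate 2), 0 to 1 for PFOA at 5 mg/kg/day (0 without vehicle replicate 1 or 2 or exposed replicate 3 or 5), 1 to 2 for GenX at 2 mg/kg/day (2 without vehicle replicate 1 or 3) and 0 to 3 for GenX at 10 mg/kg/day (0 without exposed replicate 1, 1 without exposed replicate 2 or 4 or vehicle replicate 1, 4 or 5). It gave 21 to 23 for fetal against maternal vehicle livers, 12 to 15 for maternal PFOA at 5 against 1 mg/kg/day (12 without the library labelled PFOA 1 mg/kg/day replicate 1, which was chosen for a closer reading after its values were seen), 0 to 1 for maternal GenX at 10 against 2 mg/kg/day and 0 to 0 for the fetal doses. The fetal minus maternal effects gave 1 to 1 for PFOA at 1 mg/kg/day, 4 to 9 for PFOA at 5 mg/kg/day (4 without fetal vehicle replicate 4), 0 to 1 for GenX at 2 mg/kg/day (1 without maternal exposed replicate 4 or 5 or fetal exposed replicate 3) and 1 to 3 for GenX at 10 mg/kg/day. Signal over background limits the 7 genes read on no array.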
